A study of Homo sapiens with 18 samples.

Results

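The zinc-finger gene promoters of chromosome 19 were followed in 6 established human ovarian cancer cell lines profiled by ATAC-seq, a method in which the transposase Tn5 cuts open chromatin and so marks where DNA is accessible. The members were the table's windows lying within 500 bases of the canonical transcription start of each protein-coding gene of chromosome 19 whose symbol is ZNF followed by a digit. The annotation, GENCODE on GRCh37, held 246 such genes. A total of 226 of them had a window, and together they had 365 of the 89428 windows. Each line had 3 replicate libraries, 18 in all. A2780, labelled as an endometrial or ovarian cancer line sensitive to platinum, was set against CP70, its resistant derivative selected in culture. PEA1 (sensitive) was set against PEA2 (resistant), and PEO1 (sensitive) against PEO4 (resistant), each a pair of lines taken from the same patient before and after resistance. All lines were grown in RPMI-1640 with glutamine and fetal bovine serum, and the sample labels name no drug treatment of the cultures. Each condition was represented by a single line in each pair, so a difference within a pair is a difference between those lines. The labels do not say whether replicate libraries came from separate cultures, and p-values then measure only the spread between these libraries.

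Most of these genes encode proteins with a row of C2H2 zinc fingers, which read DNA sequence, and many carry a KRAB domain. The KRAB domain recruits the co-repressor TRIM28, which brings the histone methyltransferase SETDB1 and HP1 proteins and silences the bound sites. Many of the sites are transposable elements, and the genes multiplied by tandem duplication, which left them in clusters of close relatives along chromosome 19. Starts less than 500 kb apart were joined into a cluster, and clusters of at least 5 genes were numbered in order along the chromosome. This gave 10 clusters with 232 genes, while 14 genes lay outside them. The largest were cluster 10 with 43 genes (ZNF264 to ZNF446), cluster 8 with 40 genes (ZNF175 to ZNF331) and cluster 4 with 35 genes (ZNF101 to ZNF254, from 19.8 to 24.3 Mb). The starts lay on the plus strand for 133 genes and on the minus strand for 113 genes.

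The stretch of 250 bases before the start is shown for 5 of the 6 genes whose promoters passed the stricter call in a pair, because the report turns on them. In capitals are matches on either strand. They are to an ETS motif spelled CCGGAAG, to a GC box spelled GGGCGG, to the CCAAT box by those letters, and to a cAMP response element spelled TGACGTCA. The sequences were read 5′ to 3′ on the strand of the gene from GRCh37. They lie at chr19:24097438-24097687 (plus strand) for ZNF726, chr19:24269739-24269988 (plus) for ZNF254, chr19:22605149-22605398 (minus) for ZNF98, chr19:11998347-11998596 (plus) for ZNF69 and chr19:37825301-37825550 (plus) for ZNF875.
ZNF726: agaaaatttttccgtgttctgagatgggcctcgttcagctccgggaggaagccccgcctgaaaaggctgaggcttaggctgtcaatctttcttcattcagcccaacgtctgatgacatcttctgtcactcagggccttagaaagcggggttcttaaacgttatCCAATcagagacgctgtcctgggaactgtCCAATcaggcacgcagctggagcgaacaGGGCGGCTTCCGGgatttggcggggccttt
ZNF254: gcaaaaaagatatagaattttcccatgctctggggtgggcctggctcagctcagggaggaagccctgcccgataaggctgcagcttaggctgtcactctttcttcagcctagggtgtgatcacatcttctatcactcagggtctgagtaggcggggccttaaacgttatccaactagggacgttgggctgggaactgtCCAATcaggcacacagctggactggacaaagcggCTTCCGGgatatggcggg
ZNF98: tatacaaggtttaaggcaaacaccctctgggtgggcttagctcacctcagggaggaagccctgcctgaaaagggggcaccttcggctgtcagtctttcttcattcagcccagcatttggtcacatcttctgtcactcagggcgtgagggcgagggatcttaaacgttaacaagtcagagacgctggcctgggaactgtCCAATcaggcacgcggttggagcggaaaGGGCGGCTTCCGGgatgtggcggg
ZNF69: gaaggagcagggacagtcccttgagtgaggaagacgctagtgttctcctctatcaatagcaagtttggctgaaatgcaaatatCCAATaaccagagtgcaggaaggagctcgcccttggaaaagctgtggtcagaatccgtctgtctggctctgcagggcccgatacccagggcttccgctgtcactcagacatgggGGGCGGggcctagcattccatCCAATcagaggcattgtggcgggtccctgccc
ZNF875: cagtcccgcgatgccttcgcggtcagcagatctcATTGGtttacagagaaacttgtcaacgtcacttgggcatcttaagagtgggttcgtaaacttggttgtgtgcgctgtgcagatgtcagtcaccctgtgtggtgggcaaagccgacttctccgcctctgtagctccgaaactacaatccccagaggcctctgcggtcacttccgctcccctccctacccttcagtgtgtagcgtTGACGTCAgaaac

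The first 3 of these genes belong to cluster 4, and their promoters were related. ZNF98 and ZNF726 shared an unbroken run of 26 bases (cctgggaactgtccaatcaggcacgc) that holds a CCAAT box, and ZNF254 shared 23 bases of it with each of them. Each of the 3 held an ETS match close to the start. The longest run that ZNF875 shared with any of the other 4 was 8 bases. Because only uniquely aligned reads were kept, windows in near-identical copies can hold fewer reads than were sequenced, and the extent of this was not tested.

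The ETS motif and the CCAAT box also recurred over the whole set. The ETS motif was found before the start of 75 of 246 genes (30.5%), against 11.9% of 19862 protein-coding promoters, 13.1% of the other promoters of chromosome 19 and 25.7% of ZNF promoters on other chromosomes. The CCAAT box was found in 50.4% of the 246 promoters against 34.3% of all, and the GC box in 65.4% against 59.2%. The TATA box (TATAAA) was found in 2.85% against 9.26%. Among genes with a window in the table, members were also set against promoters that are neither ZNF nor on chromosome 19. The ETS share was then 29.6% against 14.9%, the CCAAT box 50% against 33.9% and the TATA box 2.21% against 4.98%. The GC box turned, with 67.3% in members against 73.0%. The shares differed from cluster to cluster. In cluster 4, 34 of 35 promoters held a CCAAT box and 22 held the ETS motif. In cluster 3, 23 of 25 held a CCAAT box but 1 held the ETS motif, and in cluster 7, 4 of 23 held a CCAAT box and 8 the ETS motif. In 14 of 246 promoters, matches overlapped, whether of the same motif or of different ones. These are matches of letters and not measured binding. The median GC content of the same 250 bases was 59.2%, against 63.2% over all promoters.

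**Figure D1:**
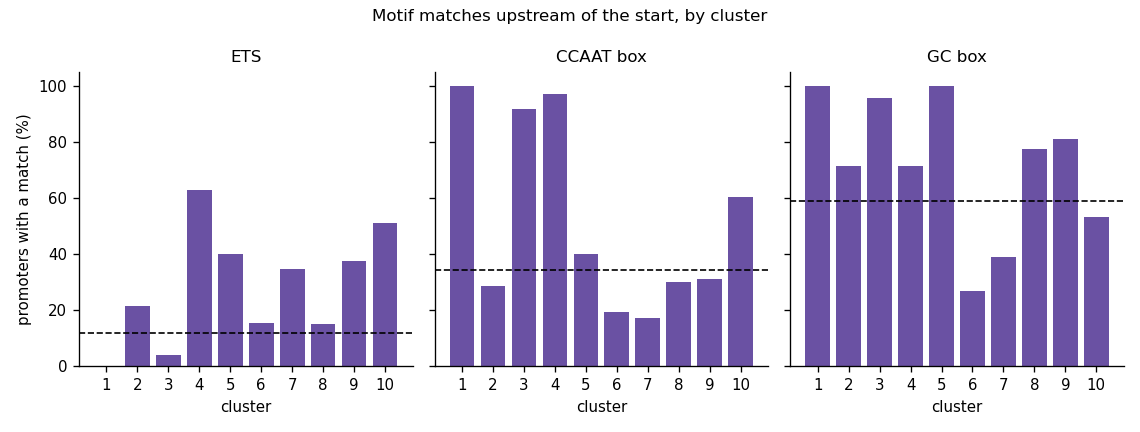
Share of promoters (percent) with a match in the 250 bases before the start, for the ETS motif, the CCAAT box and the GC box, as bars for clusters 1 to 10. The dashed line is the share over all 19862 protein-coding promoters. Clusters 1, 3 and 4 stand near the top for the CCAAT box, whereas clusters 4 and 10 have the highest ETS shares, 62.9% and 51.2%.

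Library totals ranged from 8963079 reads in PEO1 to 60435027 in A2780, and the median member window held 22 to 110 reads in a library. The share of a library's reads that fell in the table was highest in PEO1 (38.9% to 40.8%) and PEO4 (32.9% to 35.9%). It was 17.1% to 20.7% in PEA2, 12.9% to 16.8% in PEA1, 11.8% to 15.6% in CP70 and 8.38% to 10.0% in A2780. Values are FPKM (reads per window scaled to window length and library total), so levels compared between lines move with this share. Its part in the differences between lines was not tested. CP70 replicate 1 stood apart from the other CP70 libraries, with the largest chi-square per window between replicates (2.1 against replicate 3), and results of that pair are given with and without it where it matters. The A2780 replicates were also uneven, with chi-squares of 1.54 to 1.95 between them. In bulk libraries, fewer cells with an open promoter and less opening in each cell cannot be told apart.

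Of the 246 genes, 91.9% had a window in the table, against 60.7% of the other protein-coding genes of chromosome 19, 89.1% of ZNF genes on other chromosomes and 70.3% of all protein-coding genes. Every window in the table exceeded 2 FPKM in at least 2 libraries. The 20 genes with no window, not analysed here, were ZNF177, ZNF560, ZNF676, ZNF729, ZNF99, ZNF723, ZNF728, ZNF536, ZNF780B, ZNF404, ZNF222, ZNF541, ZNF114, ZNF350, ZNF534, ZNF578, ZNF154, ZNF671, ZNF587B and ZNF132. A single window was found for 79 genes, 2 windows for 143 and 3 windows for 4. Members shared 12 windows with one another, and 38 windows were shared with another protein-coding gene. Where a level is given per gene, it is that of the window nearest the start, which left 220 distinct windows.

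In FPKM as deposited, zinc-finger promoters were highest in the PEO lines and lowest in A2780, an order that centring changed. The median level over the 220 windows was 6.21 FPKM ± 0.315 (SD, n = 3 libraries) in PEO4 and 5.53 ± 0.121 in PEO1. It was 2.41 ± 0.384 in PEA1, 2.00 ± 0.125 in PEA2, 1.82 ± 0.395 in CP70 and 1.26 ± 0.179 in A2780. CP70 and PEA2, neighbours in this order, differed by less than the spread of the CP70 libraries. PEO4 had the highest mean of the 6 lines at 152 of 226 genes and PEO1 at 67, while A2780 had the lowest at 158. After centring each library on the median of all its windows, PEO4 was highest at 136 genes and PEA2, not A2780, was lowest at 149. PEO1 was then highest at 5 genes, below CP70 at 48 and PEA1 at 32. The number of genes under 0.5 FPKM was 31 in A2780 and 22 in CP70, against 5 or fewer in each of the other 4 lines. Only 20 of the 365 windows exceeded 2 FPKM in all 18 libraries. Every window in the table exceeded 2 FPKM in at least 2 libraries, a level that members low elsewhere could reach in the PEO libraries alone. How far this set the order of the lines was not tested.

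Clusters differed within a line. In PEO4 the median ran from 3.40 FPKM ± 0.303 in cluster 7 (ZNF575 to ZNF180) to 11.7 ± 1.25 in cluster 3 (ZNF653 to ZNF791), and in PEO1 from 3.21 ± 0.37 to 7.98 ± 0.251, the latter in cluster 9. In A2780 the order was not the same, with 0.796 ± 0.0944 in cluster 8 and 2.06 ± 0.27 in cluster 1. In 8 of 10 clusters the median was lower in PEA2 than in PEA1. The exceptions were cluster 4, with 3.0 ± 0.615 in PEA2 and 1.62 ± 0.343 in PEA1, and cluster 10, where the medians were 2.54 ± 0.232 and 2.35 ± 0.503 and differed by less than the spread in PEA1. Among the 8, the same held for cluster 1 (2.27 ± 0.15 in PEA2 and 2.67 ± 0.575 in PEA1) and cluster 5 (2.49 ± 0.668 and 2.93 ± 0.68).

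**Figure D2:**
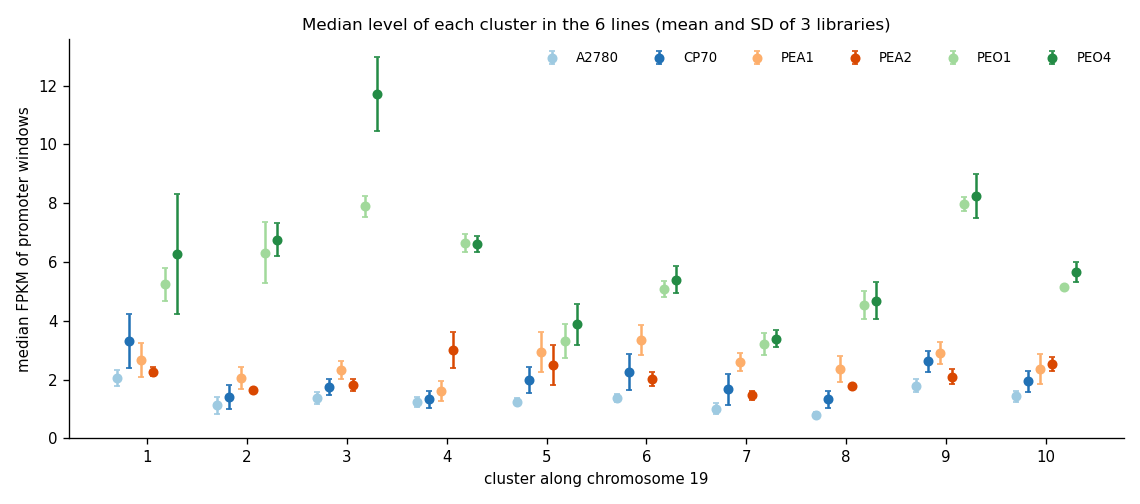
Median FPKM of the promoter windows of each cluster (1 window a gene), with the 10 clusters on the horizontal axis. Points are means and bars are SD over the 3 libraries of each line, and both PEO lines lie above the other 4 lines in every cluster, with cluster 3 of PEO4 highest at 11.7.

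Levels were also set against other promoters of the same library, which removes the library total. The median of the zinc-finger promoters divided by the median of promoters that are neither ZNF nor on chromosome 19 was 0.88 ± 0.00726 (SD, n = 3) in PEO4, 0.762 ± 0.0154 in PEO1, 0.753 ± 0.0145 in PEA1 and 0.751 ± 0.0259 in PEA2. It was lowest in A2780 (0.612 ± 0.0143) and CP70 (0.58 ± 0.0121). This ratio was below 1 in all 18 libraries, and the 3 libraries of PEO4 (0.875 to 0.888) lay above those of the other 5 lines, whose highest was 0.778. Neither held against the other promoters of chromosome 19 itself. Divided by their median, the zinc-finger promoters stood highest in PEA2 (1.27 ± 0.151) and PEO1 (1.02 ± 0.0427), followed by PEA1 (0.949 ± 0.0245), PEO4 (0.869 ± 0.034), A2780 (0.727 ± 0.0507) and CP70 (0.639 ± 0.0324). Divided by the median of promoters that are neither ZNF nor on chromosome 19, ZNF promoters of other chromosomes had ratios of 0.89 to 1.1. Across the 220 windows, level and the GC content of the window had a Spearman correlation of 0.245 in PEA2 to 0.491 in CP70, given as a description because neighbouring genes are relatives and share the library.

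In CP70 the zinc-finger promoters shifted with the rest of the table, and of the windows that passed a filter on low values only those of ZNF726 and ZNF254 were lower. Each pair was tested with limma on log2(FPKM + 0.1), with p-values adjusted over all windows tested. The stricter call asked for a log2 fold change over 2 in size and an adjusted p under 0.001, and the weaker call for an adjusted p under 0.05. Windows with a mean of 1 FPKM or less over the pair were left out, which kept 248 of 365 members. The stricter call was passed by 2 windows (0.806%, background 0.797%), both lower in CP70. By the weaker call 111 windows were higher (44.8%, background 47.5%) and 2 were lower (0.806%, background 2.29%), and the median log2 fold change was 0.56 against 0.59 over all windows. The libraries of the lines did not overlap at 137 windows higher in CP70 (background 56.2%) and 3 lower (background 2.84%). Without the filter on low values the median over all 365 windows was 0.49, and 7 windows rather than 2 were lower. The direction of the whole set rested on the scaling, since centring on the library median gave 5 higher and 8 lower (median −0.01) and removing the median of the other windows of the same 5 Mb bin, called the 5 Mb median here, gave 1 higher and 10 lower (median −0.09). The 111 became 36 without A2780 replicate 3, 67 without CP70 replicate 1 and 70 without A2780 replicate 1. Of promoters that are neither ZNF nor on chromosome 19, 0.241% passed the stricter call. By the weaker call 47% of these were higher and 1.36% lower. Of the other promoters of chromosome 19, 0 passed the stricter call, and 65.1% were higher and 0.0983% lower, with a median of 0.71. ZNF promoters of other chromosomes had a median of 0.47, with 35.7% higher and 1.67% lower.

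The promoter window of ZNF726 (chr19:24097500-24098500, which holds the start and the first bases of the gene) measured 1.88, 2.19 and 1.77 FPKM in A2780 and 0.0758, 0.479 and 0.586 in CP70. The libraries did not overlap, and CP70 was the only line under 1 FPKM in every library. By limma the change was −2.31 ± 0.32 on the log2 scale (SE, adjusted p = 1.36e-10). On reads, 312 in A2780 against 23 in CP70 gave a ratio of 4.5 (95% exact interval 2.94 to 7.2), an interval that, like those that follow, covers counting error only. The window of ZNF254 (chr19:24269400-24270400) measured 2.53, 3.4 and 2.61 FPKM in A2780 and 0.379, 0.658 and 0.879 in CP70. Here too all A2780 libraries lay above all CP70 libraries, with a log2 fold change of −2.04 ± 0.26 (adjusted p = 2.46e-13) and a read ratio of 4.07 (2.91 to 5.85). Both kept their direction with centring (−2.89 and −2.62) and with the 5 Mb median removed (−3.02 and −2.76). With a pseudocount of 0.5 in place of 0.1 the changes were −1.52 and −1.57, under the stricter call. Without CP70 replicate 1 the changes were −1.69 and −1.76, so neither passed the stricter call, though the adjusted p-values were 3.21e-09 and 3.39e-12. Without A2780 replicate 2, ZNF254 stood at −1.91 and ZNF726 fell under the filter on low values. Of the 9 table windows between these promoters that belong to no member, 2 were tested, and both were higher in CP70, by 0.68 (adjusted p = 0.03) and 1.09 (adjusted p = 0.000495) on the log2 scale.

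Among the windows nearest a start, those with the largest gains in CP70 were those of ZNF233 and ZNF223, both of cluster 7, and ZNF613 of cluster 8. ZNF233 measured 0.686 FPKM ± 0.0716 (SD, n = 3) in A2780 and 2.11 ± 0.637 in CP70, a log2 fold change of 1.45 ± 0.26 (adjusted p = 1.38e-06). ZNF613 measured 0.668 ± 0.0913 and 2.05 ± 0.78, a change of 1.44 ± 0.27 (adjusted p = 2.66e-06). For ZNF223 the levels were 0.69 ± 0.171 and 1.91 ± 0.427, a change of 1.35 ± 0.27 (adjusted p = 1.41e-05). In each of the 3 genes the lowest CP70 library lay above the highest A2780 library. With the 5 Mb median removed, ZNF613 stood at 0.79 (adjusted p = 0.0396), while ZNF233 at 0.68 (adjusted p = 0.0547) and ZNF223 at 0.58 (adjusted p = 0.103) lost the weaker call. By cluster, the median change ran from 0.38 in cluster 4 to 0.79 in cluster 6 (ZNF565 to ZNF573), where 25 of 30 windows were higher. That count was 1 with centring and 0 with the 5 Mb median removed, and 12 without A2780 replicate 3, 13 without CP70 replicate 1 and 15 without A2780 replicate 1.

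In PEA2, cluster 4 rose while most other clusters had fewer higher than lower promoters, a pattern of the values as deposited that turned with the 5 Mb median removed. Over all clusters, 331 of 365 windows were tested, and the stricter call was passed by 1, ZNF506, which was higher (background 12.7%). By the weaker call 36 windows were higher (10.9%, background 43%) and 116 were lower (35%, background 21.4%), with a median log2 fold change of −0.34 against 0.31 over all windows. The libraries did not overlap at 37 higher (background 44.1%) and 126 lower windows (background 22.2%). Without the filter on low values the median over 365 windows was −0.33. Centring gave 23 higher and 234 lower (median −0.71), but with the 5 Mb median removed there were 49 higher and 47 lower (median 0.03). The 116 became 65 without PEA1 replicate 1. The other promoters of chromosome 19 had a median of −0.55, and ZNF promoters of other chromosomes 0.05. Of promoters that are neither ZNF nor on chromosome 19, 1.96% passed the stricter call. By the weaker call 19.5% of these were higher and 32.9% lower. Of the other promoters of chromosome 19, 0.516% passed the stricter call, and 3.72% were higher and 52.1% lower.

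Of the 36 higher windows, 30 lay in cluster 4, where 37 were tested. The median log2 fold change of cluster 4 was 0.85, it was 0.48 with centring and −0.47 with the 5 Mb median removed, and the medians of the other 9 clusters lay between −0.96 and 0.08. The single window that was lower in cluster 4 was that of ZNF492, at 2.29 FPKM in PEA1 and 0.979 in PEA2 (log2 fold change −1.15, adjusted p = 1.14e-05). The same stretch held other windows of the table that belong to no member, and these moved alike. Of 26 tested, 21 were higher and 1 was lower, with a median of 1.13. Leaving out any single library gave 23 to 34 higher windows in cluster 4. Among the genes that rose there were ZNF100 (1.30), ZNF708 (1.29), ZNF737 (1.28) and ZNF738 (1.20 on the log2 scale), along with ZNF91 and ZNF93. With the 5 Mb median removed, the values of the first 4 were −0.09, −0.11, −0.12 and −0.20.

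At the other end of the values as deposited stood cluster 7, with a median of −0.96 and 25 of 27 windows lower, and cluster 6, with a median of −0.61 and 25 of 36 lower (13 without PEA1 replicate 1). The other windows of the cluster 7 stretch again moved in the same direction, with a median of −0.86 and 14 of 20 lower. With the 5 Mb median removed, the medians of clusters 7 and 6 were 0.13 and 0.11, and their direction turned.

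**Figure D3:**
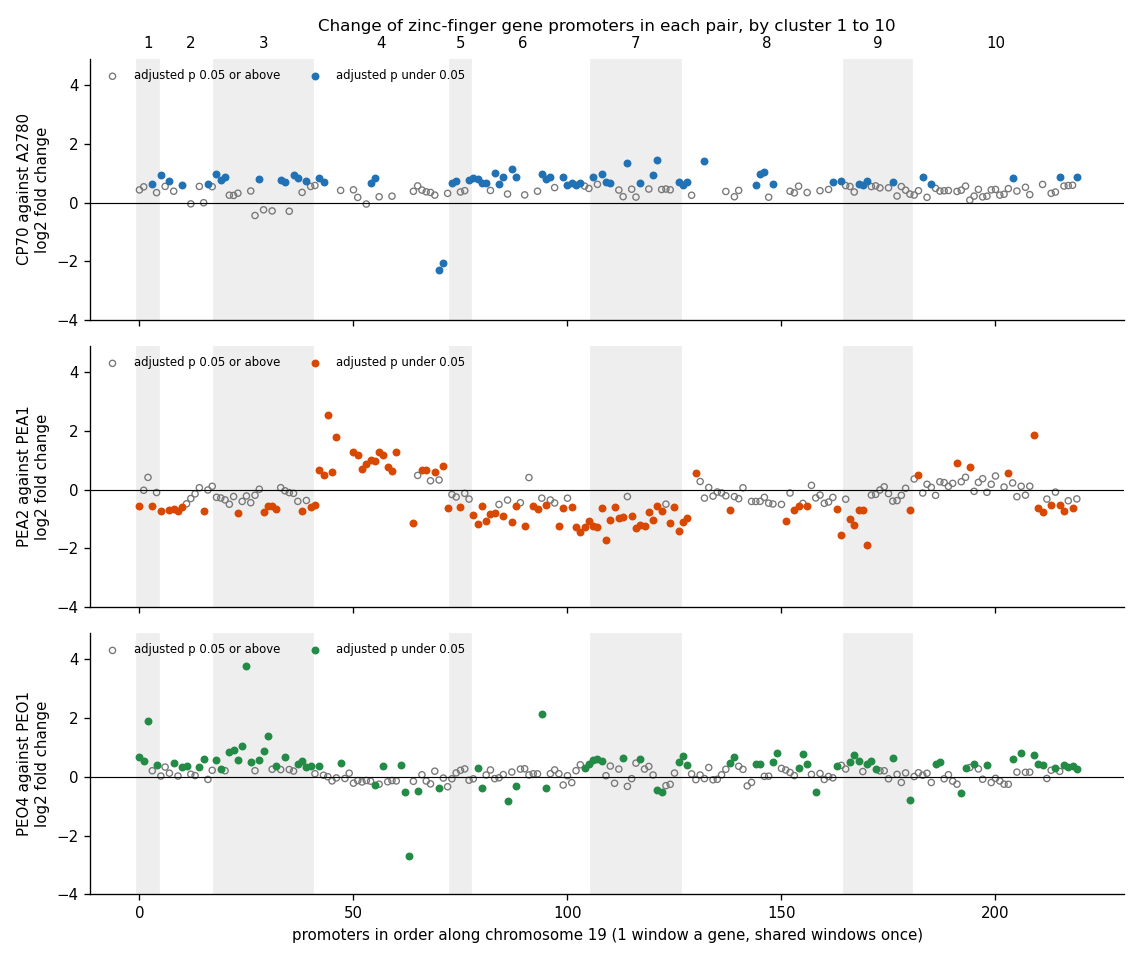
Log2 fold change of each promoter (1 window a gene) against its place in the order of genes along chromosome 19, for CP70 against A2780, PEA2 against PEA1 and PEO4 against PEO1. Filled points have an adjusted p under 0.05, shading marks odd-numbered clusters, and the run of filled points above 0 in cluster 4 of PEA2 (median 0.85) is followed by a run below 0 in clusters 6 and 7, in values without regional correction.

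ZNF506, in cluster 4, had the largest gain. Its promoter window (chr19:19932300-19933300) measured 0.513, 0.218 and 0.336 FPKM in PEA1 and 3.19, 1.91 and 2.4 in PEA2, with no overlap. The log2 fold change was 2.53 ± 0.29 (adjusted p = 1.53e-17), and 145 reads against 30 gave a ratio of 7.01 (4.71 to 10.8). The change was 2.16 with centring and 2.58 with the 5 Mb median removed, and 2.30 to 2.77 when any single library was left out. With a pseudocount of 0.5 it was 1.80, under the stricter call. The same window lay at 7.38 ± 0.777 FPKM in PEO4, 7.34 ± 0.593 in PEO1, 0.347 ± 0.0593 in A2780 and 0.33 ± 0.285 in CP70. PEA1 thus resembled the A2780 lineage at ZNF506, and PEA2 lay between it and the PEO lines.

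ZNF135 (cluster 10) was next, at 0.629 ± 0.106 FPKM in PEA1 and 2.56 ± 0.342 in PEA2 (log2 fold change 1.87 ± 0.26, adjusted p = 3.32e-12), and the change was 2.09 with the 5 Mb median removed. ZNF93, a repressor of LINE-1 elements, went from 1.08 ± 0.297 to 3.98 ± 0.813 (1.80 ± 0.24, adjusted p = 1.72e-13), and 0.40 of this was left with the 5 Mb median removed. The largest losses were at ZNF580 (cluster 9), ZNF283 (cluster 7) and ZNF331 (cluster 8), an imprinted gene. ZNF580 fell from 3.07 ± 0.642 to 0.752 ± 0.113 FPKM (log2 fold change −1.89 ± 0.25, adjusted p = 1.9e-13). ZNF283 fell from 2.61 ± 0.372 to 0.718 ± 0.101 (−1.73 ± 0.25, adjusted p = 5.7e-11), and ZNF331 from 2.19 ± 0.213 to 0.705 ± 0.197 (−1.53 ± 0.26, adjusted p = 1.9e-08). None of these 5 genes had overlapping libraries in the pair. The 3 losses did not turn with the 5 Mb median removed, but the medians of their clusters moved. They went from −0.96 to 0.13 in cluster 7, from −0.28 to 0.27 in cluster 8 and from −0.38 to −0.16 in cluster 9. How far these 3 losses follow a shift of their region was not tested.

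**Figure D4:**
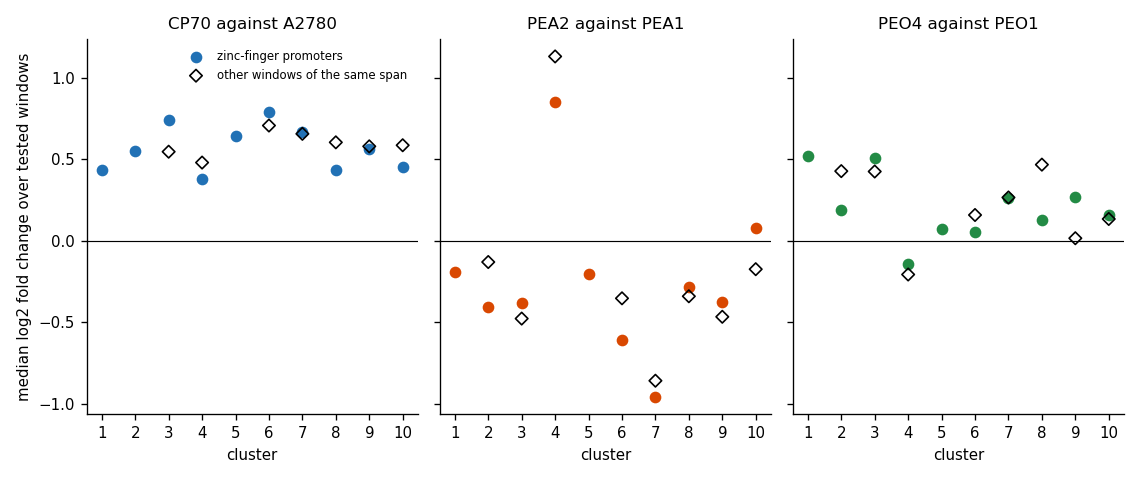
Median log2 fold change over the tested windows of each cluster, for the zinc-finger promoters (filled circles) and for the other windows of the same stretch of chromosome (open diamonds, drawn where at least 5 were tested). In PEA2 the circle and the diamond of cluster 4 stand at 0.85 and 1.13 and those of cluster 7 at −0.96 and −0.86.

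In PEO4 more zinc-finger promoters were higher than lower, though not with the 5 Mb median removed, and ZNF69, ZNF875 and ZNF98 changed most. All 365 windows were tested. The stricter call was passed by 4 windows (1.1%, background 8.49%), namely both windows of ZNF69 and that of ZNF875, which were higher, and that of ZNF98, which was lower. By the weaker call 114 windows were higher (31.2%, background 21.9%) and 25 were lower (6.85%, background 45.8%). The libraries did not overlap at 107 higher (background 22.2%) and 34 lower windows (background 47.1%). The median log2 fold change was 0.18 against −0.30 over all windows and 0.40 over the other promoters of chromosome 19. Centring gave 251 higher and 3 lower (median 0.52), whereas with the 5 Mb median removed there were 40 higher and 41 lower (median −0.03). The 114 became 73 without PEO4 replicate 2, and the 25 became 14 without PEO1 replicate 2. Of promoters that are neither ZNF nor on chromosome 19, 1.04% passed the stricter call. By the weaker call 22.8% of these were higher and 32.9% lower. Of the other promoters of chromosome 19, 0.455% passed the stricter call, and 58.4% were higher and 3.46% lower.

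Cluster 3, which holds ZNF69, had 30 of 45 windows higher and 1 lower, with a median of 0.51, which was 0.85 with centring and 0.17 with the 5 Mb median removed. Other windows of that stretch had a median of 0.42, with 16 of 25 higher. Cluster 4 had 4 higher and 9 lower of 49, with a median of −0.14 that turned to 0.20 with centring. Leaving out any single library gave 1 to 5 higher windows (1 without PEO1 replicate 2) and 6 to 12 lower ones there. Cluster 1 had 6 of 8 windows higher, but 1 with the 5 Mb median removed.

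The window of ZNF69 nearest the start (chr19:11997900-11998900) measured 0.304, 0.349 and 0.334 FPKM in PEO1 and 5.23, 6.67 and 5.58 in PEO4. In PEO1 these levels stood for 3 to 4 reads a library. The log2 fold change was 3.78 ± 0.25 (adjusted p = 9.63e-16), and 341 reads against 10 gave a ratio of 17.8 (9.56 to 37.4). The neighbouring window at chr19:11998800-11999800 had 180 reads against 9, a ratio of 10.4 (5.38 to 23.2). Across the other lines ZNF69 stood at 2.27 ± 0.315 FPKM in PEA1, 1.96 ± 0.374 in PEA2, 0.539 ± 0.236 in A2780 and 0.513 ± 0.254 in CP70. The promoter was thus highest in PEO4, while the libraries of A2780 and CP70 overlapped those of PEO1.

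ZNF875, a KRAB zinc-finger gene also known as HKR1, measured 0.101, 0.436 and 0.78 FPKM in PEO1 and 1.45, 2.21 and 2.19 in PEO4 (chr19:37825200-37826200). The log2 fold change was 2.14 ± 0.39 (adjusted p = 9.71e-06), and 115 reads against 13 gave a ratio of 4.62 (2.59 to 8.93). The spread within PEO1 was wide, and without PEO1 replicate 1 the change was 1.55, under the stricter call, as were 1.43 with a pseudocount of 0.5 and 1.93 with the 5 Mb median removed. Without PEO4 replicate 2 or 3 the window fell under the filter on low values. Levels elsewhere were 1.97 ± 0.126 in PEA1, 1.63 ± 0.489 in PEA2, 1.62 ± 0.381 in CP70 and 0.758 ± 0.117 in A2780.

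ZNF98 went the other way. Its window (chr19:22604400-22605400) measured 5.97, 6.46 and 6.8 FPKM in PEO1 and 0.698, 1.34 and 0.747 in PEO4. The log2 fold change was −2.71 ± 0.21 (adjusted p = 1.11e-13), and 194 reads against 55 gave a ratio of 6.76 (4.99 to 9.3). PEO1 was the only line above 2 FPKM at ZNF98, since the means were 0.814 ± 0.256 in PEA2, 0.756 ± 0.157 in PEA1, 0.307 ± 0.0121 in A2780 and 0.273 ± 0.0399 in CP70. The change was −2.37 with centring and −2.66 with the 5 Mb median removed.

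**Figure D5:**
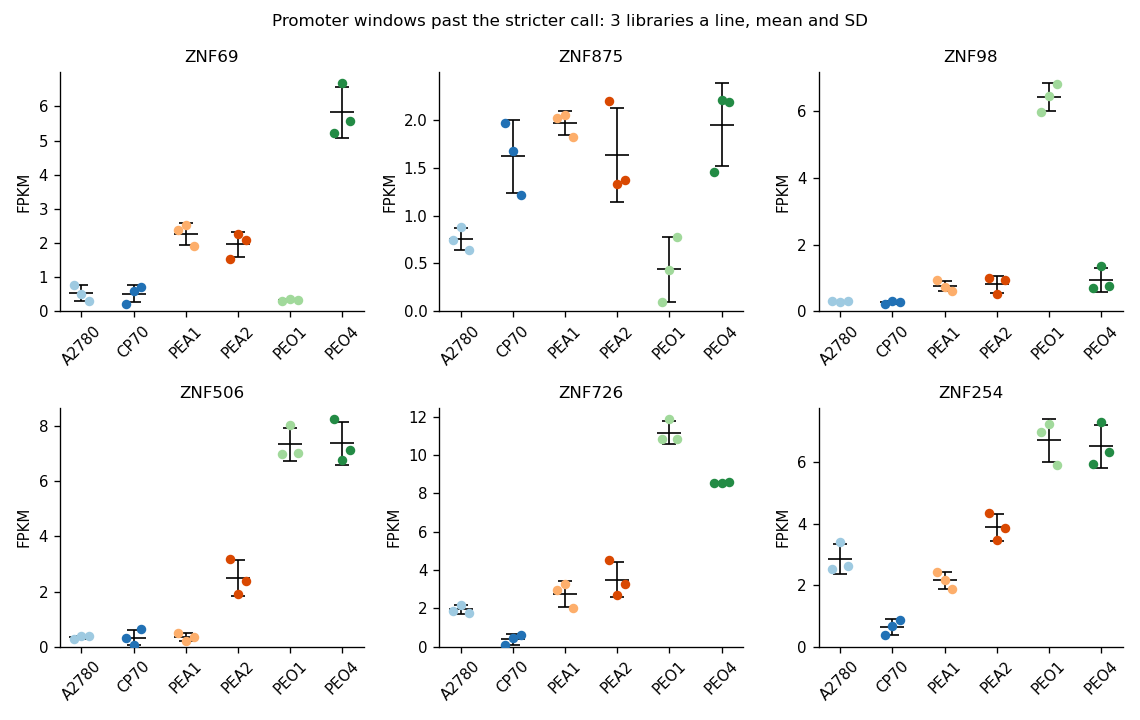
FPKM of the window nearest the start of ZNF69, ZNF875, ZNF98, ZNF506, ZNF726 and ZNF254 in each of the 18 libraries, with the mean and SD of the 3 libraries of each line. ZNF98 stands above 5 FPKM only in PEO1 libraries, ZNF69 only in PEO4 libraries, and ZNF726 and ZNF254 fall below 1 FPKM only in CP70.

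Among other promoters named in this pair, ZNF556 (cluster 1) rose from 0.521 ± 0.0835 to 2.22 ± 0.45 FPKM, a log2 fold change of 1.89 ± 0.30 (adjusted p = 7.81e-07). ZNF850 (cluster 6) fell from 4.16 ± 1.15 to 2.36 ± 0.914 (−0.83 ± 0.21, adjusted p = 0.000833), and ZNF835 (cluster 9) fell from 4.03 ± 0.194 to 2.3 ± 0.325 (−0.79 ± 0.18, adjusted p = 0.000207). Both losses were smaller than that of ZNF98.

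Across the 6 lines, 251 of 363 windows tested differed by limma's moderated F test (range of line means over 2 on the log2 scale, adjusted p under 0.001), which is 69.1% against a background of 71.4%. Centring left 84, and removing the 5 Mb median left 44. Of promoters that are neither ZNF nor on chromosome 19, 59.9% differed. Members low in A2780 and CP70 could reach 2 FPKM in the PEO libraries alone, so wide ranges with a PEO line on top can be built into the table. The extent of this was not tested. The widest ranges were those of ZNF726 (4.77), ZNF677 (4.66), ZNF493 and ZNF559 (both 4.50, the latter in a window shared with the read-through gene ZNF559-ZNF177) and ZNF93 (4.44). ZNF559 measured 11.2 ± 1.21 FPKM in PEO4, 8.61 ± 0.0284 in PEO1, 2.54 ± 0.227 in PEA1, 1.88 ± 0.751 in PEA2, 0.435 ± 0.0258 in A2780 and 0.426 ± 0.188 in CP70. ZNF93 stood at 10.4 ± 0.482 in PEO1, 10.1 ± 1.21 in PEO4, 0.455 ± 0.153 in CP70 and 0.383 ± 0.0357 in A2780. ZNF493 measured 0.652 ± 0.0646 in A2780, 0.189 ± 0.0981 in CP70 and 6.14 ± 0.379 in PEO1. At ZNF726, PEO1 measured 11.2 ± 0.605 and CP70 0.38 ± 0.269, while A2780 itself stood at 1.95 ± 0.215. The highest line was a PEO line and the lowest was A2780 or CP70 at each of these genes.

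The highest mean level over the 18 libraries was that of ZNF574 (10.1 FPKM), followed by ZNF446 (10.0), a SCAN and KRAB zinc-finger gene, and ZNF558 (9.13), a repressor of the mitophagy gene SPATA18, whose window also serves MBD3L1. This order was set mostly by the PEO lines, where levels were highest. ZNF574 ran from 3.1 ± 0.191 FPKM in PEA2 to 22.5 ± 2.69 in PEO4. The lowest were ZNF582 (1.20), ZNF229 (1.21) and ZNF28 (1.27). The window of ZNF582 measured 0.374 ± 0.0844 in A2780 and 2.2 ± 0.464 in PEO4.

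The changes in the patient-derived pairs were compared by the difference between the PEA2 and PEO4 log2 fold changes, which rest on separate libraries. This difference exceeded 2 in size with an adjusted p under 0.001 in 11 of 365 windows (3.01%, background 26.6%). With centring the count was 60 and with a pseudocount of 0.5 it was 3. Of promoters that are neither ZNF nor on chromosome 19, 9.05% passed, as did 8.9% of the other promoters of chromosome 19. The 11 windows belonged to 9 genes. The difference was positive for ZNF506 (2.53), ZNF98 (2.78) and both windows of ZNF257 (2.52 and 2.59), all of cluster 4. The filter on low values here used the mean over all 12 libraries. The windows of ZNF98 and ZNF257 passed it only through the PEO libraries and were too low to be tested in PEA2 against PEA1. In PEA1 the windows of ZNF257 held 2 to 10 and 1 to 7 reads a library. It was negative for both windows of ZNF69 (−3.99 and −3.61), for ZNF875 (−2.43), ZNF580 (−2.34), ZNF45 (−2.30), ZNF296 (−2.20) and ZNF180 (−2.03). ZNF257 measured 5.39 ± 0.737 FPKM in PEO1, 3.73 ± 0.17 in PEO4, 1.13 ± 0.479 in PEA2 and 0.233 ± 0.218 in PEA1. By cluster, the median difference was 0.94 in cluster 4 and negative in the other 9 clusters (−1.18 in cluster 7).

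Among the members are 6 genes known to repress transposable elements, namely ZNF91 (SVA elements), ZNF93 and ZNF649 (LINE-1), ZNF417 and ZNF587 (HERV-K) and ZNF808 (MER11). Counts are by the weaker call, whose background over all windows tested was 43% higher and 21.4% lower in PEA2, 21.9% and 45.8% in PEO4, and 47.5% and 2.29% in CP70. Of promoters that are neither ZNF nor on chromosome 19, 19.5% were higher and 32.9% lower in PEA2. The shares were 22.8% and 32.9% in PEO4, and 47% and 1.36% in CP70. In PEA2, 3 of 6 were higher and 0 lower, the 3 being ZNF93, ZNF91 (log2 fold change 0.66, adjusted p = 0.0078, but −0.73 with the 5 Mb median removed) and ZNF587 (0.57, limma adjusted p = 0.023). These values are of the window nearest the start, which at ZNF587 held 34 to 63 reads a library in PEA1 and 41 to 66 in PEA2. The neighbouring window of ZNF587 (chr19:58361400-58362400) did not share this rise, with 44 to 108 and 30 to 52 reads in the same libraries. In PEO4, 1 of 6 was higher, ZNF808 (0.44, adjusted p = 0.00484), and 0 were lower. In CP70, 4 were tested and 1 was higher, again ZNF808 (0.59, adjusted p = 0.0462, but −0.06 with the 5 Mb median removed). ZNF91 measured 6.58 ± 0.583 FPKM in PEO1, 5.94 ± 0.273 in PEO4, 3.05 ± 0.691 in PEA2, 2.78 ± 0.609 in CP70, 2.11 ± 0.308 in A2780 and 1.92 ± 0.621 in PEA1.

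Of 8 genes often methylated in tumours, 4 had a window (ZNF382, ZNF582, ZNF667 and ZNF677). ZNF677 was nearly closed in the A2780 lineage, at 0.331, 0.18 and 0.364 FPKM in A2780 and 0, 0.299 and 0.335 in CP70, and open elsewhere, at 6.48 ± 1.01 in PEO1, 4.54 ± 0.649 in PEO4, 2.4 ± 0.421 in PEA1 and 1.97 ± 0.415 in PEA2. Its lower level in PEO4 than in PEO1 passed the weaker call (−0.50 ± 0.15, adjusted p = 0.00371). ZNF667 rose in PEO4 (0.65, adjusted p = 6.26e-06) and in CP70 (0.70, adjusted p = 0.0226). ZNF382 rose in CP70 (1.02, adjusted p = 0.000758) and fell in PEA2 (−0.79, adjusted p = 0.00139). Of all windows tested, 47.5% were higher in CP70 (median 0.59) and 21.4% were lower in PEA2 (median 0.31). In PEO4, 21.9% were higher and 45.8% lower (median −0.30). The value of ZNF667 in CP70 thus lay near the median of all windows. DNA methylation itself was not measured in these libraries.

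The partners through which KRAB proteins silence were taken as a list of 16 genes, all of which had a promoter window. In PEA2, 1 was higher (MPHOSPH8 of the HUSH complex, 0.55, adjusted p = 0.0267) and 11 were lower, with a median log2 fold change of −0.70, where 43% of all windows tested were higher and 21.4% lower, with a median of 0.31. In PEO4, 10 were higher and 3 lower, with a median of 0.46 (all windows: 21.9% and 45.8%, median −0.30). In CP70, 9 were higher and 0 lower, with a median of 0.60 (all windows: 47.5% and 2.29%, median 0.59). Most windows of the table are not promoters. Of promoters that are neither ZNF nor on chromosome 19, 19.5% were higher and 32.9% lower in PEA2 (median −0.18). The shares were 22.8% and 32.9% in PEO4 (median −0.08) and 47% and 1.36% in CP70 (median 0.59). TRIM28, the co-repressor, lies on chromosome 19 and measured 6.08 FPKM in PEA1, 2.27 in PEA2 (log2 fold change −1.38), 17.1 in PEO1 and 23.5 in PEO4 (0.46). SETDB1, the methyltransferase, had the largest loss in PEA2 (−1.58), and DAXX, a histone chaperone, the largest gain in PEO4 (1.32). The HP1 genes CBX1 and CBX5 fell in PEA2 (−1.10 and −1.17) and rose in PEO4 (0.96 and 0.53). Other scalings were not run for these 16 promoters.

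As a check of the labels, 7 of 12 marker genes had a promoter window. PAX8, a Müllerian marker, measured 7.9 FPKM in PEO1, 5.6 in PEO4, 3.37 in PEA1, 2.47 in PEA2 and 0.61 in A2780. EPCAM, an epithelial marker, ran from 0.74 in A2780 to 11.3 in PEO1, and KRT8 from 0.681 in A2780 to 11.8 in PEO4. SOX17 went against this order, with 2.33 in PEA2, 0.896 in A2780 and 0.661 in PEO4. The part of these markers in the levels of the zinc-finger promoters was not tested. The immune markers PTPRC and CD3E, the endothelial markers PECAM1 and CDH5 and the stromal marker DCN had no window, and COL1A2, of fibroblasts, lay between 0.417 in PEA1 and 2.17 in PEO4.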

How the data were processed

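ATAC-seq was compared in 18 libraries of 6 lines. The authors removed duplicates with Picard, aligned to hg19 with Bowtie2 keeping unique alignments, left out blacklisted and mitochondrial reads, counted reads in windows with featureCounts and deposited FPKM made with edgeR (versions not given in the sources used here). As every window has the same length, the deposited FPKM are RPM up to a constant, and 100% of values were whole reads (tolerance 0.01 read). FPKM takes no account of DNA copies, which was not tested. Deposited coordinates match GRCh37 (23 of 23 chromosome steps) and are printed as deposited.

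Values were tested as log2(FPKM + 0.1), a scale that understates changes of low windows, with limma 3.58.1 (R 4.3.3, trended prior), where the authors had used voom weights. Groups and replicates came from the labels. GENCODE 44 gave the starts. Named genes were the 3 largest non-overlapping changes per pair and direction past the weaker call, the 6 widest ranges among lines, the 3 highest and 3 lowest levels, and fixed lists. ZNF492, ZNF100, ZNF708, ZNF737, ZNF738 and the examples among partners and markers were picked after their values were seen. Members and lists were chosen with earlier results of these data known. The test was checked on simulated counts. Alternatives were pseudocount 0.5, no filter or a mean above 5 FPKM, an upper limit on depth, centring, a 5 Mb median, edgeR 4.0.16 on recovered reads, a replicate block, 1 window a gene, a 1 Mb cluster gap and leaving out each library. Protein sequences were not used here. The promoter sequence of ZNF506 is not reported here.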

Additional observations from a re-analysis of the deposited data

Results flagged for a closer look

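The windows listed here stood out because the change within the PEA pair differed from the change within the PEO pair by the test of that difference (limma, over 12 libraries, size over 2 and adjusted p under 0.001). On the log2 scale the PEA change minus the PEO change was −3.99 and −3.61 at both windows of ZNF69, −2.43 at ZNF875, −2.34 at ZNF580, −2.30 at ZNF45, −2.20 at ZNF296 and −2.03 at ZNF180. It was 2.53 at ZNF506, 2.78 at ZNF98, and 2.52 and 2.59 at both windows of ZNF257. The windows of ZNF98 and ZNF257 were too low in the PEA lines to be tested in that pair and entered through the PEO libraries. For ZNF45, ZNF180 and ZNF296 the window in question was not the one nearest the start. With a pseudocount of 0.5 the count of such windows was 3 rather than 11. No outlier test per window was made, since each line had 3 libraries.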

How the results depend on the processing

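Direction over the whole set rested on the scaling. With each library centred on its median, 5 windows were higher and 8 lower in CP70 (median −0.013). In PEA2 the counts were 23 and 234 (median −0.71), in PEO4 251 and 3 (median 0.52), 4 windows passed the stricter call in PEA2, 84 differed among the 6 lines and 60 between the PEA and PEO changes. With the median of the other windows of each 5 Mb bin removed, 1 was higher and 10 lower in CP70 (−0.095). For PEA2 this gave 49 and 47 (0.031), for PEO4 40 and 41 (−0.034), 3 passed the stricter call in PEA2 and 44 differed among lines. That correction also turned ZNF233 (0.54), ZNF223 (0.85), ZNF726 (−1.06), ZNF254 (−0.57), ZNF493 (−0.62), ZNF229 (0.50) and ZNF91 (−0.73) in PEA2, ZNF506 (−0.38), ZNF559 with ZNF559-ZNF177 (−0.014) and ZNF574 (−0.062) in PEO4, and ZNF283 (−0.059) and ZNF808 (−0.062) in CP70. Centring turned ZNF254 (0.30) and ZNF93 (0.31) in PEO4. The cause was not tested.

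With 1 window a gene, fewer windows entered, and 65 were higher in CP70, 74 higher and 14 lower in PEO4, 157 differed among lines and 6 between the changes. With a mean above 5 FPKM, fewer were tested, and the stricter call was passed by 0 in each pair, the weaker call by 1 higher and 0 lower in CP70, 0 higher and 1 lower in PEA2 and 72 higher and 10 lower in PEO4, with 51 among lines and 1 between the changes. The upper limit on depth left 61 higher in PEO4 and 155 among lines. Without a filter 7 were lower in CP70 and 3 passed the stricter call in PEA2. With a pseudocount of 0.5 the stricter call was passed by 0 in CP70 and 0 in PEA2, and 3 differed between the changes. By edgeR 4 passed it in PEA2.

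Leaving out single libraries gave 0 to 3 stricter calls, 36 to 114 higher and 1 to 2 lower in CP70 (median 0.37 to 0.66), 1 to 2, 27 to 39 and 65 to 159 in PEA2 (−0.47 to −0.26) and 3 to 4, 73 to 123 and 14 to 30 in PEO4 (0.13 to 0.24), with 239 to 258 among lines and 10 to 15 between the changes. The stricter calls in CP70 were 0 without A2780 replicate 2 or CP70 replicate 1, and the lower count was 1 without A2780 replicate 2. In PEA2 2 passed the stricter call without PEA1 replicate 3 or PEA2 replicate 2. Same-numbered libraries did not deviate together (correlations −0.41 to 0.04), and with the replicate number as a block CP70 had 89 higher and 2 lower windows, PEA2 33 and 102, PEO4 126 and 27, no count moving by over 1.5 times. Over the single genes named and all alternatives but leaving out libraries, 532 values stayed on their side of the weaker call, 32 lost the call and 19 gained it. A further 15 turned and were called in the main or the alternative setting. Values called in neither setting count among the 532 even where their sign changed. Low windows are the limit of depth, since 3 reads stood for 0.33 FPKM in the shallowest library.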
